A study of Homo sapiens with 9 samples.

Results

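The miR-15 seed family, which includes miR-16 and miR-424, was followed across the small RNA libraries of a miRNA capture experiment on the 3'UTR of PD-L1, the immune checkpoint ligand encoded by CD274. Its members were taken by name as the 7 miRNAs hsa-miR-15a-5p, hsa-miR-15b-5p, hsa-miR-16-5p, hsa-miR-195-5p, hsa-miR-424-5p, hsa-miR-497-5p and hsa-miR-503-5p, all of which carry AGCAGC in their seed. They are 7 of the 2652 miRNA names in the count table, and all 7 were among the 408 miRNAs with enough reads to be tested. The rule uses names and no measured value, although it was written with earlier results of these data known.

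Small RNA was sequenced from ES-2, an ovarian cancer-derived cell line, in 3 groups of 3 libraries. All groups came from untreated wild-type cells. Input is the small RNA of the cell material itself. In the other groups, an RNA bait carrying MS2 hairpins was bound to a resin, incubated with ES-2 extract and eluted with what it had captured (miRNA trapping by RNA affinity purification, miTRAP). The bait was the PD-L1 3'UTR in one group and MS2 control RNA in the other. Per the study's methods, more PD-L1 bait than MS2 bait was immobilised, so bait sequence and bait amount cannot be told apart in any difference between the captures. The design asks which miRNAs associate with the PD-L1 3'UTR, and a single cell line served as the model.

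A miRNA guides an Argonaute protein to mRNAs by base pairing, mainly through its seed, the bases near its 5' end. miRNAs that share a seed can therefore recognise the same sites, and miR-15 and miR-16 are best known as brakes on the cell cycle and on cell survival, with cyclins and BCL2 among their targets. Most members are made in pairs from neighbouring hairpins, and each hairpin yields a 5p and a 3p strand, of which usually only one is retained in Argonaute.

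The sequences are shown first because the members share their seed and differ at the bases around it. They are the RefSeq sequences on GRCh38.p14, 5' to 3', with bases 2 to 8 in capitals.
hsa-miR-15a-5p: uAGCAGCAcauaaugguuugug
hsa-miR-15b-5p: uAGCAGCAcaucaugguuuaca
hsa-miR-16-5p: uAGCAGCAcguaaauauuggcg
hsa-miR-195-5p: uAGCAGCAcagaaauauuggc
hsa-miR-424-5p: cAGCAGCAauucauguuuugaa
hsa-miR-497-5p: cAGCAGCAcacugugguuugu
hsa-miR-503-5p: uAGCAGCGggaacaguucugcag
All members but 1 thus had the same bases 2 to 8, and miR-503-5p departed from miR-16-5p within them by A8G, with positions counted from 1 at the 5' end. Outside them, miR-424-5p and miR-497-5p differed from miR-16-5p at their first base by U1C. Over the whole length compared, seed included, miR-16-5p and miR-195-5p were the closest pair, with 2 differences over 21 bases. The pairs miR-15a-5p with miR-15b-5p and miR-15a-5p with miR-497-5p had 4 differences each, and every other pair had 6 to 11. Reads that could be shared between miR-16-5p and miR-195-5p make the split between these 2 uncertain, since the handling of mismatches and of multiply mapped reads was not stated.

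The members come from 4 pairs of hairpins. On chromosome 13 (minus strand), miR-15a-5p lies at 50049167 to 50049188 and a copy of miR-16-5p at 50049027 to 50049048, with 57 bases between their hairpins. The MIR16-1 hairpin fell in an intron in 15 of 15 spanning transcripts of DLEU2, a long noncoding RNA gene, in the GENCODE annotation. On chromosome 3 (plus strand), miR-15b-5p lies at 160404607 to 160404628 and the other copy of miR-16-5p at 160404754 to 160404775, in an intron in 13 of 13 spanning transcripts of SMC4, a condensin gene. On chromosome 17 (minus strand), miR-195-5p (7017667 to 7017687) and miR-497-5p (7017979 to 7017999) lie within the host gene MIR497HG. On chromosome X (minus strand), miR-424-5p (134546680 to 134546701) and miR-503-5p (134546371 to 134546393) have 215 bases between their hairpins, and MIR503 lay in an intron in 3 of 3 spanning MIR503HG transcripts.

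A search of the CD274 3'UTR (2692 bases in the GENCODE transcript used) gave 1 match to the family. TGCTGCT, which pairs with bases 2 to 8 of the 6 members other than miR-503-5p, occurred once, at bases 567 to 573 of the 3'UTR. The site is shown with its surroundings, the match in capitals.
CD274 3'UTR, bases 551 to 574: gtcgccaaactaaactTGCTGCTt
CGCTGCT, which pairs with bases 2 to 8 of miR-503-5p, occurred 0 times, so that this miRNA matched the site only over bases 2 to 7 (GCTGCT, bases 568 to 573). Neither TGCTGCT nor GCTGCT was found on the other strand, GCTGCT lies inside TGCTGCT, and the GCTGCT was not followed by A. Among the first 2692 bases of 5484 other 3'UTRs of at least that length, 35.7% held TGCTGCT, 64.4% held GCTGCT and 7.64% held CGCTGCT. A match of this kind is common and describes the letters only, and how much of the 3'UTR the bait contained was not analysed here.

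Each input library held 3794799 to 5983577 reads, each MS2 capture 1156261 to 2236535 and each PD-L1 capture 672824 to 1237652. Levels are given as CPM, read counts relative to the library size after TMM scaling, on which 3 reads in a library corresponded to 0.676 to 4.02 CPM. Each level is a share of a library, so more copies of a miRNA and fewer of the others cannot be told apart. PD-L1 replicate 1 stood apart in miRNAs typical of other tissues. Of 12 such markers listed, 11 had a read and 9 of these were highest in that library. The summed level of the 6 blood cell markers was 191 to 267 CPM in the input and 310 to 359 CPM in the MS2 captures, against 1424, 586 and 541 CPM in PD-L1 replicates 1, 2 and 3. Of these markers, miR-451a was at 736, 42.9 and 76.9 CPM in PD-L1 replicates 1, 2 and 3. In replicates 2 and 3 most of the sum was miR-142-5p (400 and 290 CPM) and miR-142-3p (144 and 174 CPM). In the input and MS2 libraries, miR-142-5p was at 112 to 183 CPM and miR-142-3p at 76.9 to 120 CPM. The liver miRNA miR-122-5p was at 161 CPM in PD-L1 replicate 1, at 0 and 0.726 CPM in the other PD-L1 libraries and at 40.1 to 50.4 CPM in the MS2 captures. The epithelial miR-200 family and miR-141 summed to 236 CPM in PD-L1 replicate 1 against 37.0 to 78.2 CPM in the other 8 libraries. Most of that sum was miR-200b-3p (135 CPM) and miR-200a-3p (53.1 CPM). miR-200c-3p, at 42.5 CPM, lay within the 26.1 to 50.7 CPM of the other libraries. miR-429 was at 0 in every library, miR-144-3p at 0 in input and PD-L1 libraries and miR-150-5p at 0 in MS2 libraries. None of the family's members was highest in PD-L1 replicate 1, and 6 of 7 were lowest of their group there, so each count of members below is also given without it.

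In the input, miR-16-5p was the most abundant member and miR-497-5p the least. The order ran from miR-16-5p (1064 ± 126 CPM, SD, n = 3) through miR-503-5p (584 ± 48.9 CPM), miR-15b-5p (283 ± 39.3 CPM), miR-424-5p (91.5 ± 13.9 CPM), miR-15a-5p (14.7 ± 2.76 CPM) and miR-195-5p (8.18 ± 0.507 CPM) to miR-497-5p (2.27 ± 1.06 CPM). No neighbours in that order overlapped between libraries. In the MS2 captures miR-503-5p was first and miR-16-5p second, and the libraries of miR-15b-5p overlapped with those of miR-424-5p, as did those of miR-195-5p, miR-15a-5p and miR-497-5p from neighbour to neighbour. In the PD-L1 captures the order was miR-16-5p, miR-15b-5p, miR-424-5p, miR-503-5p, miR-15a-5p, miR-195-5p and miR-497-5p, with an overlap only between miR-424-5p and miR-503-5p. In the plot of the members by library, miR-503-5p alone had its PD-L1 captures at the level of its MS2 captures.

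**Figure D1:**
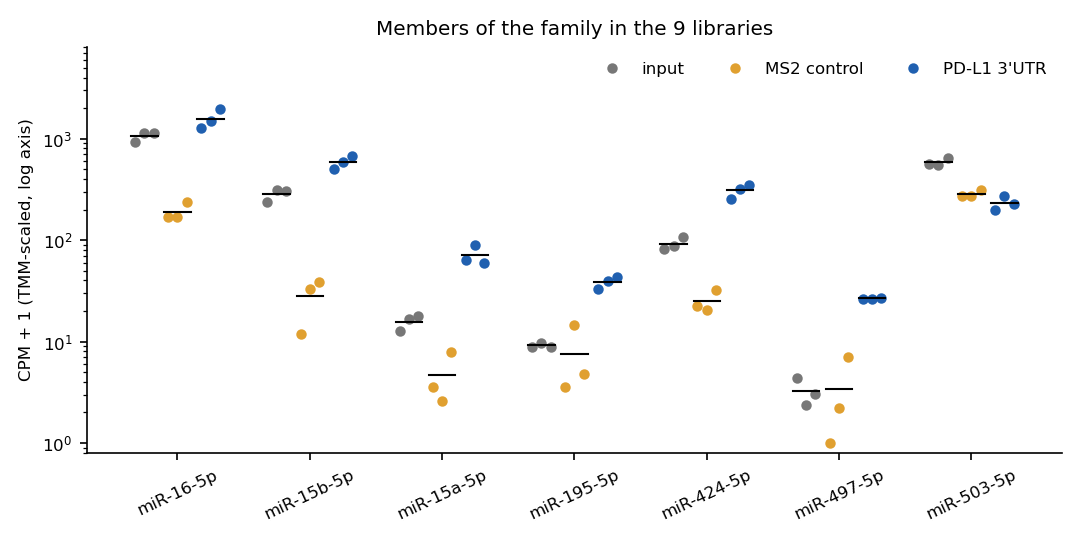
Level of each member in each library as TMM-scaled CPM plus 1 on a log axis, with input in grey, MS2 control in orange, PD-L1 3'UTR in blue and a black bar at the group mean (n = 3). The PD-L1 points lie above all MS2 points for 6 members and overlap with them for miR-503-5p (PD-L1 mean 230 CPM, MS2 mean 283 CPM). Of all miRNAs tested, 32.6% had all PD-L1 libraries above all MS2 libraries. Among the 6, miR-195-5p and miR-497-5p passed the filter only through the PD-L1 libraries and carry no weight.

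The PD-L1 3'UTR captures held more of 6 members than the MS2 control captures, and miR-503-5p was the exception. The 6 were 5.27-fold (miR-195-5p) to 21.6-fold (miR-15b-5p) higher. All 6 were called by edgeR's quasi-likelihood test (Benjamini-Hochberg, adjusted p under 0.05) and 0 members were lower, where 31.4% of the 408 miRNAs tested were called higher and 28.7% lower. At an unadjusted p under 0.05, and with DESeq2, 0 members were lower as well. The members' median log2 fold change was 3.53 against 0.02 over all 408. In all 6, each PD-L1 library exceeded each MS2 library, as in 32.6% of all miRNAs tested, and 0 members were lower throughout, as were 33.1% of all. miR-195-5p and miR-497-5p passed the filter on low counts only through the PD-L1 libraries, so for these the difference was partly required by the filter and their place in the count and the median carries no weight. The remaining 5 members had enough reads without that group. Leaving out PD-L1 replicate 1 again gave 6 members higher and 0 lower.

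miR-16-5p, the most abundant member, was at 166, 169 and 236 CPM in the MS2 captures and at 1280, 1477 and 1975 CPM in the PD-L1 captures. The lowest PD-L1 library was far above the highest MS2 library, and the log2 fold change was 3.05 ± 0.22 (SE, adjusted p = 7.14e-07, edgeR). Its reads came from both loci in about equal parts, with 48.2 to 53.5% assigned to chromosome 13 in each library, although the mature sequence is the same at both and the assignment says nothing of origin.

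miR-15b-5p, made beside miR-16-5p on chromosome 3, was at 11.0, 32.1 and 37.8 CPM in the MS2 captures against 499, 588 and 670 CPM in the PD-L1 captures. The groups did not overlap (log2 fold change 4.44 ± 0.38, edgeR adjusted p = 2.87e-06). Within the same libraries, miR-15b-5p made up a larger fraction relative to miR-16-5p in the PD-L1 captures (0.390, 0.398 and 0.339 reads per miR-16-5p read) than in the MS2 captures (0.0664, 0.190 and 0.160). The MS2 values rest on 17 to 81 reads of miR-15b-5p, and in the input the ratio lay between the captures (0.259, 0.270 and 0.268). This ratio does not depend on how the libraries are scaled. An exact two-sided permutation test gave p = 0.10, the smallest that 3 against 3 libraries allow.

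miR-424-5p, known from hypoxic endothelium and from the cell cycle arrest of differentiating monocytes, was at 21.3, 19.4 and 31.0 CPM in the MS2 captures and at 255, 318 and 351 CPM in the PD-L1 captures. Again the groups did not overlap, with a log2 fold change of 3.70 ± 0.26 (edgeR adjusted p = 5.24e-07). It had the smallest adjusted p of the 7 members.

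Of the scarce members, miR-15a-5p rose from 2.59, 1.59 and 6.81 CPM in the MS2 captures (4, 4 and 9 reads) to 62.3, 88.5 and 58.8 CPM in the PD-L1 captures (88, 66 and 81 reads). All PD-L1 libraries were above all MS2 libraries and the log2 fold change was 4.34 ± 0.47 (edgeR adjusted p = 1.56e-05), or 5.05 without MS2 replicate 3, which held most of the MS2 reads. miR-195-5p was at 2.59, 13.5 and 3.78 CPM in the MS2 captures and at 31.9, 38.9 and 42.1 CPM in the PD-L1 captures. MS2 replicate 2, with 34 reads against 4 and 5, stood apart, and the log2 fold change of 2.40 ± 0.51 (edgeR adjusted p = 0.00200) became 3.54 without it. miR-497-5p, its neighbour on chromosome 17, was at 0, 1.19 and 6.05 CPM (0, 3 and 8 reads) in the MS2 captures and at 25.5, 25.5 and 26.1 CPM (36, 19 and 36 reads) in the PD-L1 captures. The groups did not overlap, and the log2 fold change of 3.53 ± 0.77 (edgeR adjusted p = 0.00237) was 5.04 without MS2 replicate 3. Both miR-195-5p and miR-497-5p passed the filter only through the PD-L1 libraries. Their separation from the MS2 captures was thus partly required by the filter, and its p-values carry no weight.

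miR-503-5p was at 272, 268 and 309 CPM in the MS2 captures and at 195, 270 and 225 CPM in the PD-L1 captures. The libraries overlapped, and the log2 fold change of -0.30 ± 0.16 was not called (edgeR adjusted p = 0.139, approximate 95% interval -0.62 to 0.02). The interval lies below that of each other member. Among those that passed the filter without the PD-L1 libraries, the nearest was miR-16-5p at 2.62 to 3.48. miR-195-5p (1.40 to 3.40) and miR-497-5p passed only through the PD-L1 libraries and carry no weight here. In the MS2 captures miR-503-5p was the most abundant member, followed by miR-16-5p.

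**Figure D2:**
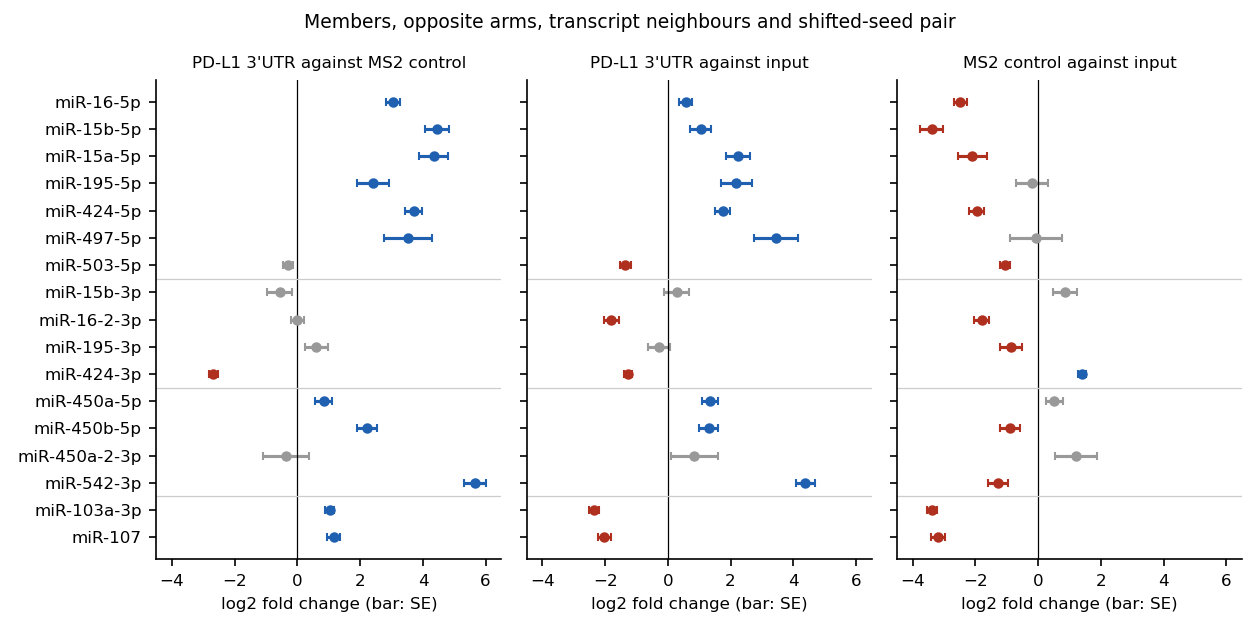
Log2 fold changes (points) with standard errors (bars) from the edgeR fit for PD-L1 3'UTR against MS2 control, PD-L1 3'UTR against input and MS2 control against input, with rows for members, opposite arms, transcript neighbours and the miR-103a-3p and miR-107 pair. Blue marks higher, red lower and grey not called at an adjusted p under 0.05, and miR-503-5p stands at -0.30, -1.35 and -1.05 in the 3 panels.

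Set against the input, the PD-L1 captures held more of the same 6 members and less of miR-503-5p, with the sizes in another order. The log2 fold changes of the 6 ran from 0.57 for miR-16-5p to 3.46 for miR-497-5p. The counts were 6 members called higher and 1 lower, where 34.1% of all miRNAs tested were called higher and 32.4% lower, and the members' median log2 fold change was 1.75 against 0.04 over all. As no input library reached the filter for miR-195-5p and miR-497-5p, both were tested only because their PD-L1 libraries were high, and their part in these counts, in the median and in the order of sizes carries no weight here either. The PD-L1 libraries were all above the input libraries for 6 members and all below for 1 (37.3% and 37.5% of all miRNAs). Without PD-L1 replicate 1 the counts were again 6 and 1. The PD-L1 libraries are the same as in the comparison with the MS2 control, so these comparisons are not independent. Scaling the libraries by their totals in place of TMM moved the median of all miRNAs by 0.57 on the log2 scale and the calls over all from 139 higher and 132 lower to 192 higher and 89 lower, so the changes are to be read relative to the bulk of miRNAs.

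miR-497-5p was at 3.42, 1.35 and 2.03 CPM in the input (13, 4 and 9 reads) against 25.5, 25.5 and 26.1 CPM in the PD-L1 captures. Its log2 fold change was 3.46 ± 0.70 (edgeR adjusted p = 0.00142). miR-15a-5p was at 11.6, 15.5 and 16.9 CPM in the input and 2.24 ± 0.39 higher on the log2 scale in the PD-L1 captures (edgeR adjusted p = 5.57e-04). miR-195-5p, at 7.89, 8.77 and 7.89 CPM in the input, was 2.19 ± 0.49 higher (edgeR adjusted p = 0.00244). These 3 members made up little of the family in the input. Their PD-L1 libraries all lay above the input libraries, as in 37.3% of all miRNAs tested. Both miR-195-5p and miR-497-5p were tested only because their PD-L1 libraries were high, so their differences and p-values carry no weight.

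miR-424-5p was at 81.5, 85.6 and 107 CPM in the input and 1.75 ± 0.23 higher on the log2 scale in the PD-L1 captures (edgeR adjusted p = 8.38e-05). miR-15b-5p was at 238, 310 and 302 CPM in the input, and its log2 fold change was 1.05 ± 0.33 (edgeR adjusted p = 0.0167). This call did not hold without input replicate 1, 2 or 3 (0.80, 1.02 and 0.90) or without PD-L1 replicate 2 or 3 (0.94 and 0.87). miR-16-5p was at 919, 1147 and 1125 CPM in the input, and its PD-L1 libraries lay just above, with a log2 fold change of 0.57 ± 0.20 (edgeR adjusted p = 0.0293). It was called in 2 of 9 fits that each left out a library, those without MS2 replicate 2 (0.58) or PD-L1 replicate 1 (0.64). Without input replicate 1, 2 or 3 it was 0.33, 0.53 and 0.42, without MS2 replicate 1 or 3 it was 0.48 and 0.39, and without PD-L1 replicate 2 or 3 it was 0.51 and 0.31, none of them called. The difference of miR-16-5p from the input was thus at the limit of what these libraries resolve.

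miR-503-5p was the member that was lower than in the input, at 563, 550 and 640 CPM in the input against 195, 270 and 225 CPM in the PD-L1 captures. The groups did not overlap, the log2 fold change was -1.35 ± 0.17 (edgeR adjusted p = 5.39e-05), and with library totals it was -0.78 and still called.

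The MS2 control captures, the background of the capture, held less of 5 members than the input and 0 were higher (edgeR, also 0 at an unadjusted p under 0.05 and with DESeq2). Of all miRNAs tested, 37.0% were called lower and 32.8% higher, and the members' median log2 fold change was -1.95 against 0.02 over all. The libraries were all lower, without overlap, for 5 members and all higher for 0, as for 39.7% and 35.8% of all miRNAs. Without PD-L1 replicate 1, 5 members were again lower and 0 higher. Library totals moved the median of all miRNAs by 0.63 and the calls over all from 134 higher and 151 lower to 199 and 104, and the same number of members was called lower.

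miR-15b-5p had the largest difference between MS2 captures and input, a log2 fold change of -3.39 ± 0.37 (edgeR adjusted p = 1.78e-05). miR-16-5p followed with -2.48 ± 0.21 (edgeR adjusted p = 3.85e-06), then miR-15a-5p with -2.10 ± 0.46 (edgeR adjusted p = 0.00215, or -2.98 without MS2 replicate 3) and miR-424-5p with -1.95 ± 0.24 (edgeR adjusted p = 4.85e-05). miR-503-5p had the smallest log2 fold change of the 5, -1.05 ± 0.16 (edgeR adjusted p = 2.43e-04). For miR-195-5p the value was -0.20 ± 0.51 (edgeR adjusted p = 0.722) and became -1.34 (edgeR adjusted p = 0.0186) without MS2 replicate 2. For miR-497-5p it was -0.07 ± 0.82 (edgeR adjusted p = 0.943), with an interval of -1.67 to 1.52, so that at 0 to 13 reads a library a difference of several-fold was not detectable.

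Summed over the 7 members, the family reached 1825, 2118 and 2201 CPM in the input, 475, 505 and 630 CPM in the MS2 captures and 2349, 2805 and 3348 CPM in the PD-L1 captures. The groups did not overlap. The PD-L1 mean was 5.28-fold that of the MS2 captures and 1.38-fold that of the input, and without miR-503-5p these folds were 10.3 and 1.78. As a plain share of library reads, the family took 0.155 ± 0.0159% in the input, 0.0627 ± 0.00816% in the MS2 captures and 0.318 ± 0.0539% in the PD-L1 captures (SD, n = 3). These sums were given no test, as the members were chosen with earlier results known.

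The make-up of the family also differed between groups. miR-503-5p took 30.8, 26.0 and 29.1% of the family's reads in the input, 57.3, 53.0 and 49.0% in the MS2 captures and 8.32, 9.61 and 6.72% in the PD-L1 captures. No library of one group overlapped with another. miR-15b-5p ran the other way, with 13.8 ± 0.793% in the input, 4.89 ± 2.24% in the MS2 captures and 20.7 ± 0.649% in the PD-L1 captures, also without overlap. miR-424-5p took 4.46 ± 0.419% in the input and 4.42 ± 0.540% in the MS2 captures, which overlapped, and 10.9 ± 0.424% in the PD-L1 captures, above both. miR-16-5p held 51.9 ± 2.00%, 35.3 ± 1.99% and 55.4 ± 3.26%, and here the PD-L1 and input libraries overlapped. miR-15a-5p, miR-195-5p and miR-497-5p together stayed minor in every group, at means of 2.52, 1.33 and 0.925% in the PD-L1 captures. A share must fall when another rises, and no test was applied to these shares.

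**Figure D3:**
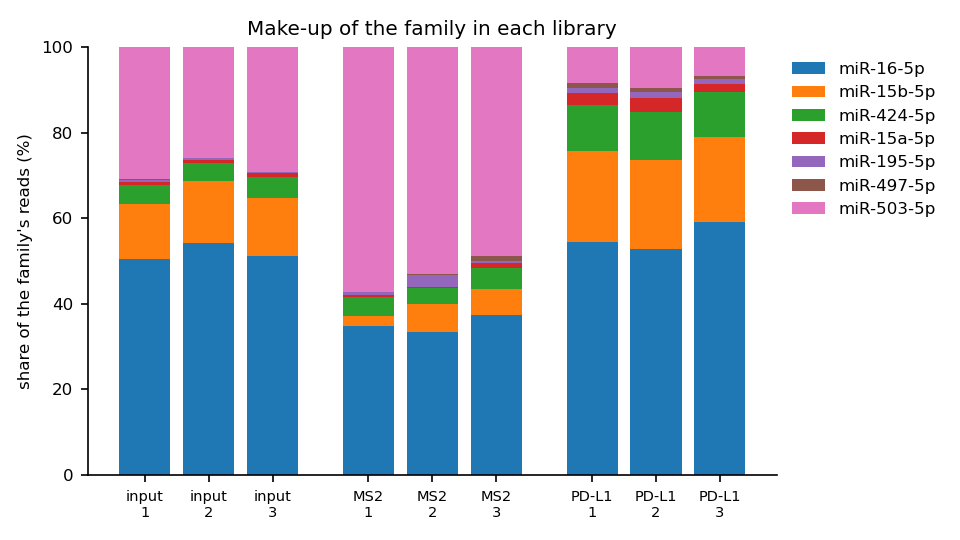
Share of the family's reads taken by each member (percent, stacked) in each of the 9 libraries, labelled by group and replicate number. miR-503-5p takes 26.0 to 30.8% in the input, 49.0 to 57.3% in the MS2 captures and 6.72 to 9.61% in the PD-L1 captures.

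miR-424-5p and miR-503-5p come from adjacent hairpins on the X chromosome and differed in their capture. There were 6.90, 6.42 and 5.96 reads of miR-503-5p per read of miR-424-5p in the input and 12.8, 13.8 and 9.95 in the MS2 captures, against 0.767, 0.848 and 0.640 in the PD-L1 captures. The order of this pair was thus reversed in every PD-L1 library. The log2 difference of the ratio was -4.01 from the MS2 captures (16.1-fold) and -3.10 from the input (8.59-fold), each with p = 0.10 by an exact two-sided permutation test, the smallest possible with 3 libraries a group. This ratio and the other 6 within-library ratios were chosen after the values were seen, each was compared between 3 pairs of groups, and with this p no adjustment could bring one under 0.05.

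The opposite arms of the members' hairpins give a further comparison, as both arms come from the same precursor. Of 8 listed, 4 had enough reads to be tested. In the PD-L1 captures, 0 of these 4 were higher and 1 was lower than in the MS2 captures, and 0 were higher and 2 lower than in the input (edgeR, with 0 higher also at an unadjusted p under 0.05 and with DESeq2). Over all miRNAs tested, 31.4% were higher and 28.7% lower than in the MS2 captures, and 34.1% and 32.4% than in the input. The PD-L1 libraries were all below the MS2 libraries for 2 of the 4 arms and all above for 0, as for 33.1% and 32.6% of all miRNAs. The median log2 fold change of the 4 arms against the MS2 control was -0.28. miR-15a-3p, miR-16-1-3p, miR-497-3p and miR-503-3p had too few reads, and miR-497-3p had 0 reads in every library.

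miR-424-3p, the partner of miR-424-5p, has a seed unrelated to that of the family.
hsa-miR-424-3p: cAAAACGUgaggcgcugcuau
The sequence is printed with its seed in capitals because the 2 arms moved in opposite directions. It was at 795, 772 and 818 CPM in the input, 2088, 1970 and 2238 CPM in the MS2 captures and 345, 346 and 290 CPM in the PD-L1 captures, without any overlap. Its log2 fold change was -2.68 ± 0.14 against the MS2 control (edgeR adjusted p = 5.08e-08) and -1.28 ± 0.13 against the input (edgeR adjusted p = 1.48e-05). It was higher in the MS2 captures than in the input (1.40 ± 0.13, edgeR adjusted p = 6.84e-06), where miR-424-5p was lower. Reads of miR-424-5p per read of miR-424-3p were 0.103, 0.111 and 0.131 in the input, 0.0102, 0.00987 and 0.0139 in the MS2 captures and 0.739, 0.919 and 1.21 in the PD-L1 captures. This is a difference of 83.8-fold between the captures (exact two-sided permutation p = 0.10).

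The other arms told less, as most were not called. miR-16-2-3p was at 228, 453 and 319 CPM in the MS2 captures and 312, 353 and 333 CPM in the PD-L1 captures, which overlapped (log2 fold change near 0, edgeR adjusted p = 0.988, approximate 95% interval -0.44 to 0.43). It was lower in the PD-L1 captures than in the input (-1.80 ± 0.23, edgeR adjusted p = 6.80e-05). The ratio of miR-16-5p to both miR-16 3p arms was 0.711, 0.365 and 0.727 in the MS2 captures and 4.01, 4.11 and 5.84 in the PD-L1 captures, with 0.839, 1.05 and 0.868 in the input. miR-15b-3p had a log2 fold change of -0.56 against the MS2 control (edgeR adjusted p = 0.244). Its PD-L1 libraries (74.3, 48.3 and 77.6 CPM) all lay below its MS2 libraries (108, 94.0 and 96.1 CPM). ATGATTC, which pairs with its bases 2 to 8, occurred 1 time in the CD274 3'UTR, followed by A, and in 15.1% of the other 3'UTRs. The other tested arms had 0 such matches. The ratio of miR-15b-5p to miR-15b-3p was 0.102, 0.342 and 0.394 in the MS2 captures and 6.71, 12.2 and 8.63 in the PD-L1 captures. Against the input (10.8, 4.25 and 4.32) that ratio overlapped with the PD-L1 captures (exact two-sided permutation p = 0.30). miR-195-3p was not called against either group (edgeR adjusted p = 0.186 against MS2 and 0.506 against input), and the ratio of miR-195-5p to it was 0.190, 0.829 and 0.417 in the MS2 captures and 2.14, 1.81 and 1.76 in the PD-L1 captures. For miR-424, miR-16 and miR-15b, the 5p to 3p ratio was thus above every MS2 library in each PD-L1 library. These ratios were chosen after the values were seen, and how often the same holds for other hairpins was not counted. The ratio of miR-195 was also higher. However, miR-195-5p passed the filter only through the PD-L1 libraries, so its ratio was partly required to be high there and carries no weight.

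**Figure D4:**
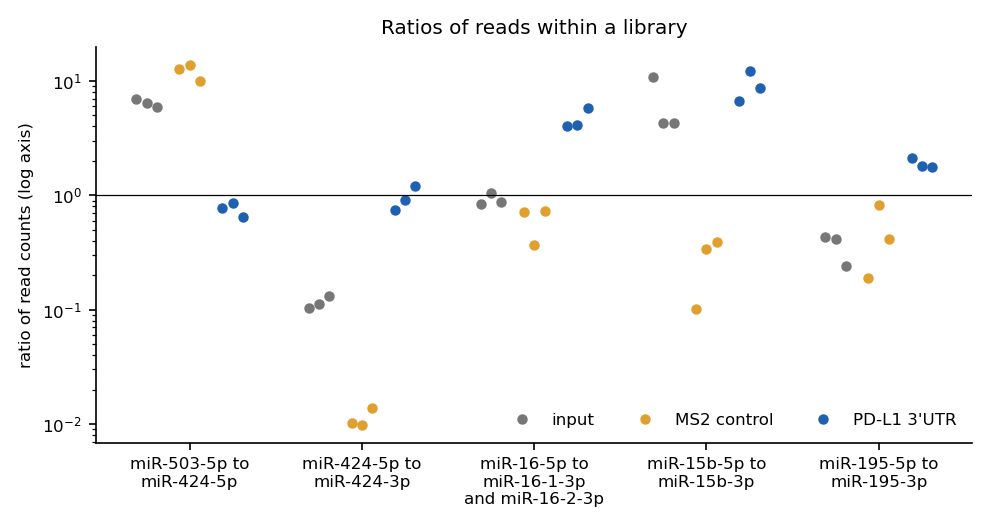
Ratios of read counts within each library on a log axis, with input in grey, MS2 control in orange and PD-L1 3'UTR in blue, and a line at 1. The ratio of miR-503-5p to miR-424-5p is below 1 only in the PD-L1 libraries (0.640 to 0.848), while the 4 ratios of 5p to 3p arms are higher in each PD-L1 library than in any MS2 library. That of miR-195-5p carries no weight, as this miRNA passed the filter only through the PD-L1 libraries. How often the same holds for other hairpins was not counted.

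Further miRNAs lie with miR-424 and miR-503 on the X chromosome, and 4 of the 7 listed neighbours were tested. In the PD-L1 captures, 3 were higher than in the MS2 captures, 3 were higher than in the input, and 0 were lower in either, also at an unadjusted p under 0.05 and with DESeq2. The shares over all miRNAs tested were 31.4% and 34.1% higher and 28.7% and 32.4% lower. Without PD-L1 replicate 1, 2 neighbours were higher than in the MS2 captures and 3 than in the input. miR-542-3p was at 15.3, 21.9 and 16.2 CPM in the input, 7.76, 4.36 and 10.6 CPM in the MS2 captures and 316, 407 and 387 CPM in the PD-L1 captures. Its log2 fold change of 5.66 ± 0.34 against the MS2 control (edgeR adjusted p = 1.70e-07) was above that of every family member, and against the input it was 4.38 ± 0.30 (edgeR adjusted p = 6.65e-07). Per read of miR-503-5p there were 1.62, 1.51 and 1.72 reads of miR-542-3p in the PD-L1 captures and 0.0163 to 0.0399 in the other 6 libraries. miR-450b-5p was at 17.5, 48.4 and 41.6 CPM in the MS2 captures and 178, 160 and 162 CPM in the PD-L1 captures (log2 fold change 2.21 ± 0.32, edgeR adjusted p = 1.64e-04). miR-450a-5p had 62.1, 55.1 and 62.0 CPM against 149, 87.2 and 82.0 CPM, a log2 fold change of 0.83 ± 0.26 (edgeR adjusted p = 0.0166) that fell to 0.54 (edgeR adjusted p = 0.0784) without PD-L1 replicate 1. miR-450a-2-3p was not called in any comparison. TTGCAAA, which pairs with bases 2 to 8 of miR-450b-5p, occurred 1 time in the CD274 3'UTR, followed by A, and in 26.7% of the other 3'UTRs. The matches of miR-450a-5p and miR-450a-2-3p occurred 0 times, and no sequence of miR-542-3p was at hand to search with. Against the MS2 control, the miRNAs of this stretch of chromosome X thus ranged from -2.68 for miR-424-3p to 5.66 for miR-542-3p.

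miR-103a-3p and miR-107 carry the letters of the family's seed moved by 1 base (GCAGCAU at bases 2 to 8 in place of AGCAGCA), and are known for their part in insulin signalling. miR-103a-3p was at 6401, 6864 and 6713 CPM in the input, 568, 693 and 663 CPM in the MS2 captures and 1030, 1410 and 1482 CPM in the PD-L1 captures. Both captures lay below the input and the PD-L1 libraries above the MS2 libraries. The log2 fold change was 1.03 ± 0.15 against the MS2 control (edgeR adjusted p = 1.95e-04) and -2.35 ± 0.16 against the input (edgeR adjusted p = 6.05e-07). miR-107 gave 1.16 ± 0.21 (edgeR adjusted p = 6.78e-04) and -2.02 ± 0.21 (edgeR adjusted p = 1.57e-05). Against the input, 6 family members were called higher, opposite to this pair, and miR-503-5p was called lower (-1.35), as the pair was. Over all miRNAs tested, 34.1% were called higher and 32.4% lower. Of the 6, miR-195-5p and miR-497-5p passed the filter only through the PD-L1 libraries and carry no weight. The calls of miR-16-5p and miR-15b-5p held in 2 and 4 of 9 fits that each left out a library. ATGCTGC, which pairs with bases 2 to 8 of the pair, occurred 0 times in the CD274 3'UTR, and TGCTGC, for bases 2 to 7, once at base 567, overlapping the family's site. Only 2 other miRNAs in the table carried AGCAGC at bases 2 to 7, miR-646 and miR-6838-5p, and neither had enough reads to be tested.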

How the data were processed

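The 9 small RNA libraries of ES-2 cells were read from 1 end. Per the labels, the deposited values are raw read counts per mature miRNA locus, which the authors made with cutadapt 1.18, Bowtie2 2.2.6 and featureCounts 1.6.3 on hg38 (submitters' processing notes) with miRBase annotation. The study's methods name more than one build, and the treatment of multiply mapped reads is not given in the sources used here. RefSeq coordinates are GRCh38.p14, and all 7 members and 33 of 36 listed miRNAs had a RefSeq sequence. Host introns and 3'UTRs came from GENCODE on GRCh37.

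Groups and replicate numbers followed the sample titles. The labels do not say that replicates were separate cultures, so p-values may measure technical spread only. Counts of the 2883 loci were summed to 2652 names, of which 1500 had a read. Names were kept by edgeR's filterByExpr (minimum count 10, a CPM of 8.05), which left 408. Libraries were scaled by TMM and all 9 fitted together with edgeR 4.0.16 (glmQLFit, glmQLFTest, two-sided) in R 4.3.3, with Benjamini-Hochberg adjustment over 408 and a threshold of 0.05. The biological coefficient of variation was 31.1%. The fit was tested on simulated data. Read totals limit precision, and intervals cover the fitted spread. No 2 replicates of a group agreed within counting noise.

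Ratios were tested by exact permutation (scipy 1.17.1). Members and lists were chosen with earlier results of these data known. Named miRNAs were the members, their opposite arms, the neighbours of miR-424 and miR-503, miRNAs with the same or the shifted seed, tissue markers, and the 5 miRNAs nearest in pattern. Alternatives were DESeq2 1.42.0 and its size factors, library totals, other filters, single loci, 2 groups only, the replicate number as a block, each library left out and, added after the data were seen, robust empirical Bayes.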

Additional observations from a re-analysis of the deposited data

How the results depend on the processing

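Across 18 alternative settings, 9 of which each left out 1 library, the 7 members gave 377 log2 fold changes, of which 352 kept direction and side of the threshold, 16 lost the call, 1 gained it and 8 changed sign. Members called higher against the MS2 control numbered 6 in all 18. Of all 408 miRNAs, 128 were called higher there with TMM, 133 with DESeq2 size factors and 123 with library totals. Among the 6, miR-195-5p and miR-497-5p passed the filter only through the PD-L1 libraries and carry no weight, here or against the input. Against the input, members called higher ranged from 4 to 6 with a library left out and from 5 to 6 otherwise. Members lower in the MS2 captures than in the input ranged from 5 to 6 with a library left out and stayed at 5 otherwise. miR-16-5p against the input lost its call with single loci (0.51), a mean of at least 10 CPM (0.53), no filter (0.32) and 2 groups only (0.47). Of all miRNAs, 132 were lower in the PD-L1 captures than in the input, and 201 without the filter. Library totals moved the log2 fold of the summed family to 1.04 (PD-L1 against input) and to -1.31 (MS2 against input). The causes were not tested.

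The values that changed sign were not called with all libraries and TMM. Against the MS2 control, miR-16-2-3p (-0.00, lowest -0.21 without MS2 replicate 1) gave 0.00 with DESeq2, 0.01 with its size factors, 0.03 with the replicate block, and 0.27, 0.07 and 0.00 without MS2 replicate 2, PD-L1 replicate 1 and PD-L1 replicate 3, and miR-450a-2-3p ranged from -1.16 to 0.07 with a library left out, highest without PD-L1 replicate 1. Between PD-L1 and input, miR-15b-3p ranged from -0.23 (without input replicate 1) to 0.45, miR-195-3p gave 0.30 with library totals and miR-450a-2-3p from -0.00 (without PD-L1 replicate 2) to 1.23. Between MS2 and input, miR-195-5p gave 0.40 with library totals, and from -1.34 (without MS2 replicate 2) to 0.05 (without MS2 replicate 1). miR-497-5p gave 0.05 with DESeq2, 0.00 with its size factors, 0.53 with library totals, and 0.41, 0.34 and 0.25 without MS2 replicate 1, MS2 replicate 2 and input replicate 1, with a lowest value of -1.78 without MS2 replicate 3. It had no value in that comparison with 2 groups only, where it was filtered out.

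The lower call of miR-195-3p in the MS2 captures against the input (-0.87, edgeR adjusted p = 0.0455) was lost in 5 of the fits without 1 library and in 7 other settings. In that comparison library totals also ended the calls of miR-542-3p (-0.66) and miR-450b-5p (-0.30). Replicate numbers did not pair the libraries, as same-numbered libraries correlated at -0.18 to 0.13 in their deviations from group means. With the replicate block, 6 members were higher than in the MS2 captures and 126 of all miRNAs, against 128 without it, and miR-16-5p against the input was 0.55 and still called. Low counts in the captures (0 to 34 reads of miR-15a-5p, miR-195-5p and miR-497-5p in the MS2 libraries) limit what can be said of the scarce members.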

Other observations

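The miRNAs whose pattern over the 9 libraries was nearest to that of the summed family carried other seeds. Likeness was the root mean square difference between log2(CPM + 1) values, each centred on its own mean, and its median over the 401 tested miRNAs outside the family was 1.37. The 5 nearest were miR-138-5p (0.172), miR-181b-5p (0.203), miR-19b-3p (0.239), miR-10a-3p (0.265) and miR-4449 (0.270). miR-138-5p averaged 278 ± 32.8 CPM in the input, 76.7 ± 15.0 CPM in the MS2 captures and 325 ± 22.8 CPM in the PD-L1 captures (SD, n = 3), and CACCAGC, which pairs with its bases 2 to 8, occurred 2 times in the CD274 3'UTR and in 22.2% of the other 3'UTRs. miR-19b-3p, of the miR-17-92 cluster, averaged 301 ± 10.4, 109 ± 39.6 and 443 ± 51.0 CPM, and its match TTTGCAC occurred 0 times. The matches to bases 2 to 8 of miR-181b-5p, miR-10a-3p and miR-4449 also occurred 0 times. The members' own distances from their sum were 0.291 for miR-16-5p, which dominates it, and 0.606 (miR-424-5p) to 1.26 (miR-497-5p) for the others, with miR-503-5p at 1.13. The likeness covers 9 libraries in 3 groups and was given no test.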
